A study of Gallus gallus with 16 samples.

Results

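The genes described here build and run mitosis: the kinases that start it, the motors and binding proteins of the spindle, the condensins that compact chromosomes, and the machinery that cuts the dividing cell apart. The members were a list of 56 gene names, and 53 of them had a row among the 18151 gene rows of the chicken RNA-Seq data. AURKB, CDCA8 and KIF22 had no row under those names. Cyclins, CDKs and kinetochore genes were left out of the list.

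The libraries came from primary granulosa cells of hens of the strain White Leghorns, aged 25 to 30 weeks. The poGC-KD group was poGC, granulosa cells of pre-ovulatory F2 to F4 follicles, transfected with FOXL2-siRNA, and poGC-CT was poGC given the nonsense NC-siRNA. The phGC-KD group was phGC, granulosa cells of pre-hierarchical small yellow follicles, transfected with FOXL2-siRNA, and phGC-CT was phGC given NC-siRNA. Each group had 4 libraries, all cells were precultured for 16 h, and RNA was collected 48 h after transfection. Follicles were taken from 4 hens, but which hen gave which replicate was not given in the sources used here, so p-values measure the spread between these libraries, which may in part be technical. The knockdown was transient and rested on a single siRNA duplex.

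The duplexes are shown because every comparison between KD and CT turns on them. Capitals mark the 19 paired bases, and the lower-case tt is the overhang at each 3′ end.
FOXL2-siRNA strand 1: GCCUCAACGAGUGCUUCAUtt
FOXL2-siRNA strand 2: AUGAAGCACUCGUUGAGGCtt
NC-siRNA strand 1: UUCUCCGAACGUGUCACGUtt
NC-siRNA strand 2: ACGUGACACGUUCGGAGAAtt

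Mitotic genes are silent for most of the cell cycle. In vertebrate cells they are switched on together in late S phase and G2 by the MMB complex (MuvB with MYBL2) and FOXM1, and kept off in quiescent cells by the DREAM complex. FOXL2 is a forkhead transcription factor that maintains granulosa cell identity. In the hen, granulosa cells of small follicles are less differentiated than those of the pre-ovulatory hierarchy, which make progesterone.

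Library totals ran from 45697479 to 56121795 counts in poGC-KD, against 36191442 to 53062138 in poGC-CT. They ran from 29979116 to 44937588 counts in phGC-KD, against 30476674 to 32997177 in phGC-CT. Levels are given as CPM, the counts of a gene scaled to library size, with TMM scaling over the 16 libraries; they compare a gene between libraries but not genes with each other. Levels compared between genes are FPKM, which divide by transcript length. FOXL2 itself stood at 394 to 503 CPM in poGC-KD, against 688 to 777 CPM in poGC-CT, a log2 fold change of -0.68 (edgeR adjusted p = 3.53e-04). In phGC it stood at 361 to 508 CPM in phGC-KD, against 471 to 681 CPM in phGC-CT. That log2 fold change of -0.43 missed the threshold after adjustment (edgeR adjusted p = 0.0878), and the libraries overlapped. By qRT-PCR on the RNA used for sequencing, the study reported FOXL2 significantly lower in both KD groups. It also reported less FOXL2 protein in both by Western blot. Of 14 granulosa markers, 13 had a row and were detected in every group, with summed levels of 2278 to 2464 CPM in poGC-KD, against 2647 to 2795 CPM in poGC-CT, and of 3305 to 4075 CPM in phGC-KD, against 2981 to 3559 CPM in phGC-CT. The phGC sums rest largely on AMH, which averaged 1821 CPM in phGC-KD and 1594 in phGC-CT, against 26.1 in poGC-KD and 49.2 in poGC-CT. In poGC 3 of the 13 were higher and 6 lower at an edgeR adjusted p under 0.05 (15.2% and 13.6% of all genes tested). The theca and stroma list (10 of 10 genes with a row) summed to 1033 to 1109 CPM in poGC-KD, against 1510 to 1577 CPM in poGC-CT, and to 5105 to 6269 CPM in phGC-KD, against 5526 to 6337 CPM in phGC-CT. Its genes differed widely. CYP19A1, which theca cells express in the hen, was at 0 CPM in both KD groups and averaged at most 0.023 CPM in the CT groups. CYP17A1 averaged 93.1 CPM in poGC-KD, 148 in poGC-CT, 149 in phGC-KD and 113 in phGC-CT. COL3A1, the highest of the list in each group, averaged 518, 962, 4037 and 4332 CPM in the same order. The leukocyte list (6 of 7 genes) summed to 110 to 120.3 CPM in poGC-KD, against 147 to 160.4 CPM in poGC-CT, and to 60.8 to 75.8 CPM in phGC-KD, against 77.3 to 94.3 CPM in phGC-CT. CD4 was at 0 CPM in both KD groups and averaged only 0.032 CPM in poGC-CT and 0.015 CPM in phGC-CT. CD74, the highest of this list in each group, averaged 82.4 CPM in poGC-KD, 110 in poGC-CT, 48.6 in phGC-KD and 68.5 in phGC-CT. Smooth muscle genes (5 of 5) summed to 29.3 to 32.7 CPM in poGC-KD, against 42.5 to 48.1 CPM in poGC-CT. In phGC they summed to 37.8 to 45.6 CPM in phGC-KD, against 36.0 to 45.7 CPM in phGC-CT. LMOD1 carried these sums, averaging 24.7 CPM in poGC-KD, 35.9 in poGC-CT, 32.5 in phGC-KD and 25.1 in phGC-CT. It was the 1 gene of this list that was higher in phGC-KD, and the other 4 were lower. Endothelial genes (7 of 7) summed to 145 to 153 CPM in poGC-KD, against 73.0 to 170 CPM in poGC-CT. In phGC they summed to 165 to 186 CPM in phGC-KD, against 113 to 125 CPM in phGC-CT. CLDN5 and EGFL7 carried the phGC sums, averaging 98.9 and 55.0 CPM in phGC-KD, against 65.0 and 24.5 CPM in phGC-CT. KDR was also higher in phGC-KD, while PECAM1, CDH5, TEK and VWF were lower. PECAM1 averaged 8.46 CPM in phGC-KD and 11.3 in phGC-CT, and CDH5 averaged 8.64 and 14.5 CPM. Erythrocyte genes (3 of 8) summed to at most 1.06 CPM in any library. The germ cell list is carried by ZP3, which granulosa cells of the hen also make. The part of these cell types in the results below was not tested.

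In poGC nearly the whole set of mitotic genes was higher after the knockdown. Of the 53 genes, 52 were higher in poGC-KD than in poGC-CT, and 49 passed an adjusted p of 0.05 in edgeR's quasi-likelihood test, all of them higher; 15.2% of all 14379 genes tested were called higher and 13.6% lower. The median log2 fold change was 1.09, or 2.12-fold, with the middle of the members between 0.82 and 1.27, against a median of 0.0094 over all genes tested. Of the 49 called genes, 31 were at least 2-fold higher and 3 less than 1.5-fold higher, the called range being 1.35-fold to 2.91-fold. In 47 genes every poGC-KD library lay above every poGC-CT library, where 15.5% of all genes did so, and 46 passed the study's own criteria of a fold change over 1.5 with an unadjusted p under 0.05, where 5.86% of all genes did so upward and 5.34% downward; over all genes 28.8% were called in either direction, and in 16.1% every poGC-KD library lay below every poGC-CT library. The 53 genes together took 0.365% to 0.386% of all counts in poGC-KD, against 0.183% to 0.203% in poGC-CT. In bulk RNA, a larger share of dividing cells and more RNA per dividing cell cannot be told apart.

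In phGC few of these genes were called. Only 5 of 53 passed the threshold: INCENP, SPAG5 and MASTL rose, and HMGB2 and WEE1 fell, where 5.06% of all 13829 genes tested were called higher and 4.91% lower, 9.97% in all. The share of members called was therefore close to that of all genes. The median log2 fold change was 0.14, against a median of -0.0058 over all genes tested. In phGC-KD 39 genes were higher and 14 lower, where 6804 of all genes tested were higher and 7025 lower. The study's criteria were passed by 1 gene, MASTL (3.8% of all genes upward and 3.48% downward). At an unadjusted p under 0.05, 15 genes were counted, 13 higher and 2 lower, where 26.3% of all genes passed in either direction. In 7 genes (AURKA, INCENP, KIF2C, CKAP2, SPAG5, NCAPD3 and MASTL) every phGC-KD library lay above every phGC-CT library, where 9.39% of all genes did so, and in HMGB2 and WEE1 every one lay below, where 9.01% did so. Each of the 5 calls was lost in at least 1 of the 16 alternatives run, and the count fell to 2 without phGC-KD 1, to 2 without phGC-CT 4, to 3 without phGC-KD 4 and to 3 without phGC-CT 2. The share of all genes called in those fits was 5.7%, 4.7%, 6.27% and 5.42%, in the same order. Without phGC-CT 3, the lowest of its group in 33 of the 53 genes, the median log2 fold change was 0.08.

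**Figure D1:**
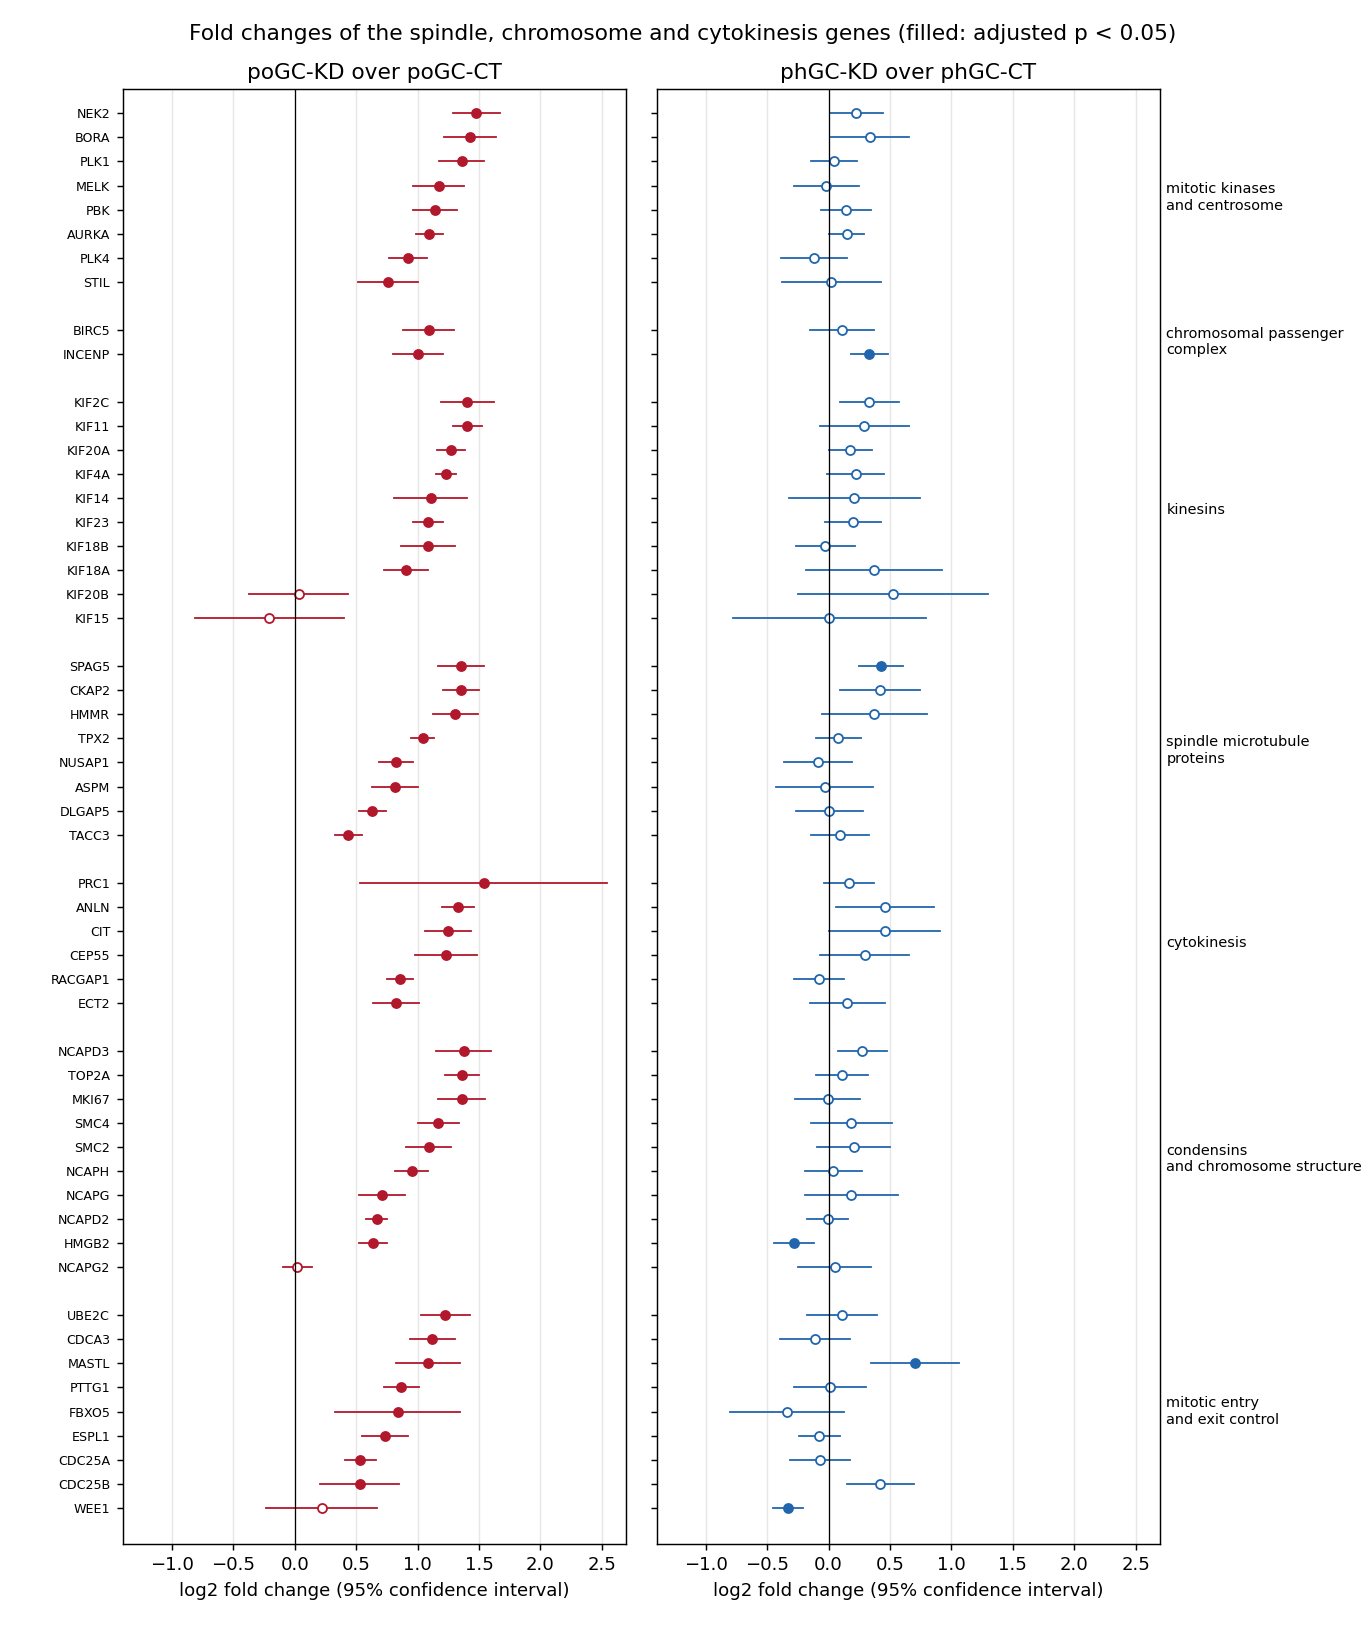
The log2 fold change of each of the 53 genes with its 95% confidence interval, KD over CT, in poGC on the left and in phGC on the right, grouped by role; filled points have an edgeR adjusted p under 0.05. In poGC 49 points are filled and all lie right of 0, while in phGC 5 are filled, 3 to the right and 2 to the left.

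The effect of the knockdown was compared between the cell types directly, as the difference of the log2 fold changes in a fit of all 16 libraries. The estimated fall of FOXL2 itself, given above, was larger in poGC and missed the threshold in phGC. A test of the difference between these falls is not given here. Cell type and strength of knockdown therefore cannot be told apart in this comparison. The difference was called for 42 of 53 genes, all with the larger effect in poGC, where 4.47% of all 14775 genes tested were called in that direction and 4.78% in the other, 9.25% in all. By the study's criteria applied to the difference, 43 genes passed, where 4.39% of all genes did so with the larger effect in poGC and 4.32% with the larger in phGC. The median difference was 0.90 on the log2 scale. It was largest among the called genes for MKI67, the proliferation antigen, at 1.34 (SE 0.14, edgeR adjusted p = 3.97e-05), and smallest for CDC25A at 0.58 (SE 0.12, edgeR adjusted p = 0.00760). KIF15, KIF18A, KIF14, KIF20B, TACC3, PRC1, NCAPG, NCAPG2, CDC25B, WEE1 and MASTL were not called. Of these, PRC1 was called without poGC-CT 4 (edgeR adjusted p = 1.77e-04). Without phGC-CT 3, KIF14, TACC3 and NCAPG were called (edgeR adjusted p = 0.0265, 0.0103 and 0.00593). The sizes of effect in the cell types, which share no library, were related across the 53 genes with a Spearman's rho of 0.46 and a Pearson's r of 0.34; these genes share their libraries and are not independent replicates. Neither effect followed the level of the gene closely, with a Spearman's rho against mean FPKM of -0.026 in poGC and -0.21 in phGC.

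The levels in the single libraries show how the groups stood. The poGC-KD libraries lay above all others for most genes, with poGC-KD 4 the highest of its group in 33 genes. Set against phGC-CT, the median ratio of mean CPM over the 53 genes was 1.82 for poGC-KD, 1.10 for phGC-KD and 0.98 for poGC-CT. The 53 genes took 0.216% to 0.239% of counts in phGC-KD, against 0.189% to 0.222% in phGC-CT. These comparisons share the phGC-CT libraries.

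**Figure D2:**
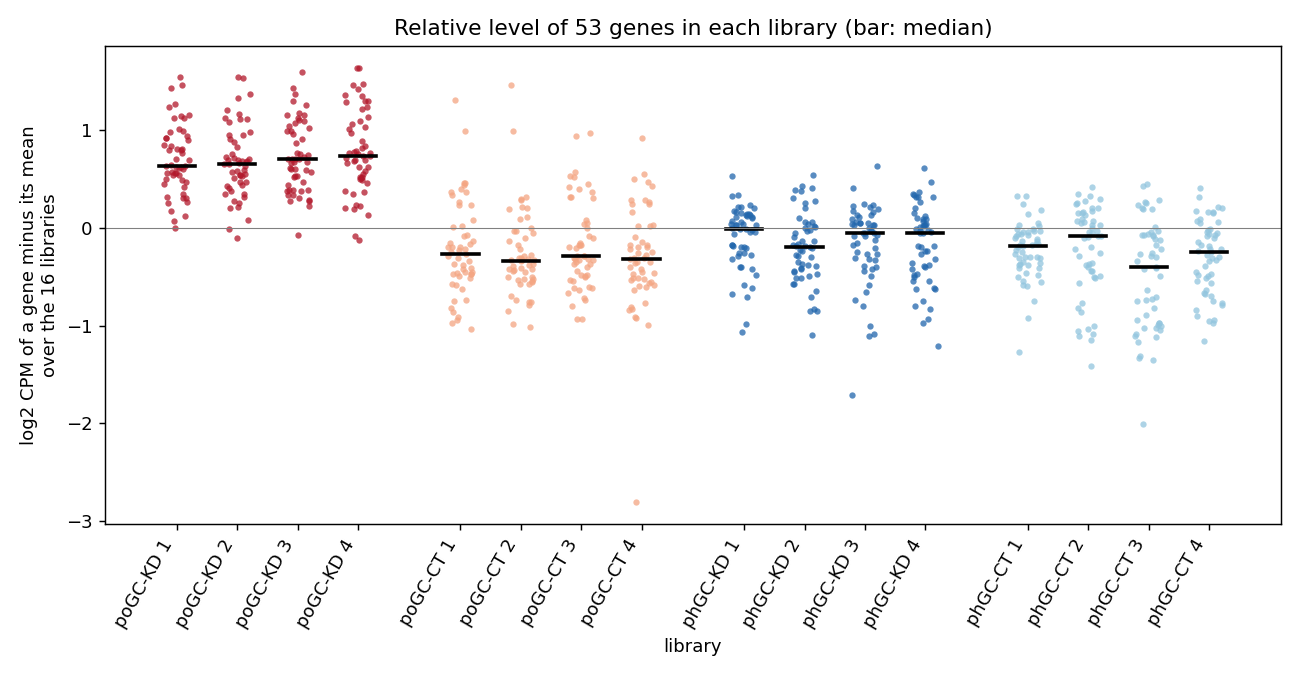
Each point is 1 of the 53 genes in 1 library, as its log2 CPM minus that gene's mean over the 16 libraries, and the bar is the median of the 53. The 4 poGC-KD medians lie above those of the 12 other libraries, phGC-CT 3 has the lowest median, and the single point near the bottom in poGC-CT 4 is PRC1 at 12.2 CPM.

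Before the genes are taken by role, 3 of them need care because their rows varied against the row of the next gene along the chromosome. Neighbours were taken from the RefSeq order in GRCg7b, a later build than the Gallus_gallus-5.0 used for the files. Of 48 members with a neighbour in the files, 3 varied against one, with a correlation of within-group deviations under -0.8 over the 16 libraries and a spread of their own above 0.2 on the log2 scale. These correlations describe the libraries, which the rows share. The pairs were KIF15 with TMEM42 (r = -0.99), PRC1 with VPS33B (r = -0.90) and WEE1 with ZNF143 (r = -0.89), and in each the sum of the rows varied less than the member did. The pairs were found after the values were seen. In addition, 8 members (PLK4, KIF14, KIF20A, KIF20B, PRC1, CEP55, SMC2 and SMC4) overlap another gene in RefSeq that is also in the files; the counting is not stated to use strand, so reads in the shared stretch cannot be told apart.

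KIF15, a kinesin that backs up KIF11 in holding spindle poles apart, had 57.9, 35.0, 38.8 and 65.1 CPM in poGC-KD, against 65.9, 65.7, 65.0 and 33.8 CPM in poGC-CT. TMEM42 had 4.44, 23.8, 22.7 and 4.06 CPM in poGC-KD, against 4.19, 5.71, 5.77 and 35.2 CPM in poGC-CT, and was high exactly where KIF15 was low. The groups overlapped fully, and the log2 fold change of KIF15 was -0.21 (SE 0.27, edgeR adjusted p = 0.614). For KIF15 plus TMEM42 the sum was 62.4, 58.8, 61.5 and 69.1 CPM in poGC-KD, against 70.1, 71.4, 70.8 and 68.9 CPM in poGC-CT, with a log2 fold change of -0.14 (edgeR adjusted p = 0.0873). Neither value passed the threshold. In phGC KIF15 had 15.8, 15.5, 31.2 and 29.1 CPM in phGC-KD, against 17.5, 39.3, 16.3 and 17.8 CPM in phGC-CT, a log2 fold change of 0.0044 (SE 0.35, edgeR adjusted p = 0.995). With TMEM42 added, the phGC value was -0.30 (edgeR adjusted p = 0.0287), a value for both rows together and not for KIF15 alone.

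PRC1, which bundles antiparallel microtubules in the central spindle, had 152, 143, 155 and 145 CPM in poGC-KD, against 61.0, 64.8, 69.5 and 12.2 CPM in poGC-CT. The low poGC-CT library was the one in which VPS33B, otherwise at 62.8 to 71.6 CPM in poGC-CT, stood at 112 CPM. All 4 poGC-KD libraries were above all 4 poGC-CT libraries, and the log2 fold change was 1.54 (SE 0.44, edgeR adjusted p = 0.0304), the largest of the 53 with all 8 libraries. Without poGC-CT 4 it was 1.20 (edgeR adjusted p = 3.53e-05), and with VPS33B added it was 0.80 (edgeR adjusted p = 9.62e-06). Without any 1 of poGC-KD 1, 2, 3 or 4 or poGC-CT 1 or 2, the adjusted p of PRC1 was 0.0516 to 0.0630. The difference between cell types, not called for PRC1 with all libraries, passed without poGC-CT 4 (1.02, edgeR adjusted p = 1.77e-04). With VPS33B added that difference was 0.74 (edgeR adjusted p = 3.53e-05), a value for both rows together.

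WEE1, the kinase that holds CDK1 inactive until mitosis, had 135, 151, 152 and 157 CPM in poGC-KD, against 91.9, 96.3, 166 and 164 CPM in poGC-CT. The low poGC-CT libraries, 1 and 2, were those in which ZNF143 stood at 110 and 101 CPM, against 50.7 and 58.5 CPM in poGC-CT 3 and 4. The groups overlapped, and the log2 fold change of 0.22 (SE 0.20, edgeR adjusted p = 0.458) became -0.12 (edgeR adjusted p = 0.0739) with ZNF143 added. In phGC, where ZNF143 ranged between 23.2 and 34.3 CPM, WEE1 had 84.9, 78.6, 82.6 and 83.6 CPM in phGC-KD, against 103, 104, 107 and 99.3 CPM in phGC-CT. Every phGC-KD library was below every phGC-CT library, with a log2 fold change of -0.33 (SE 0.05, edgeR adjusted p = 0.00722). The call was lost in the fit of all 16 libraries (edgeR adjusted p = 0.168).

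**Figure D3:**
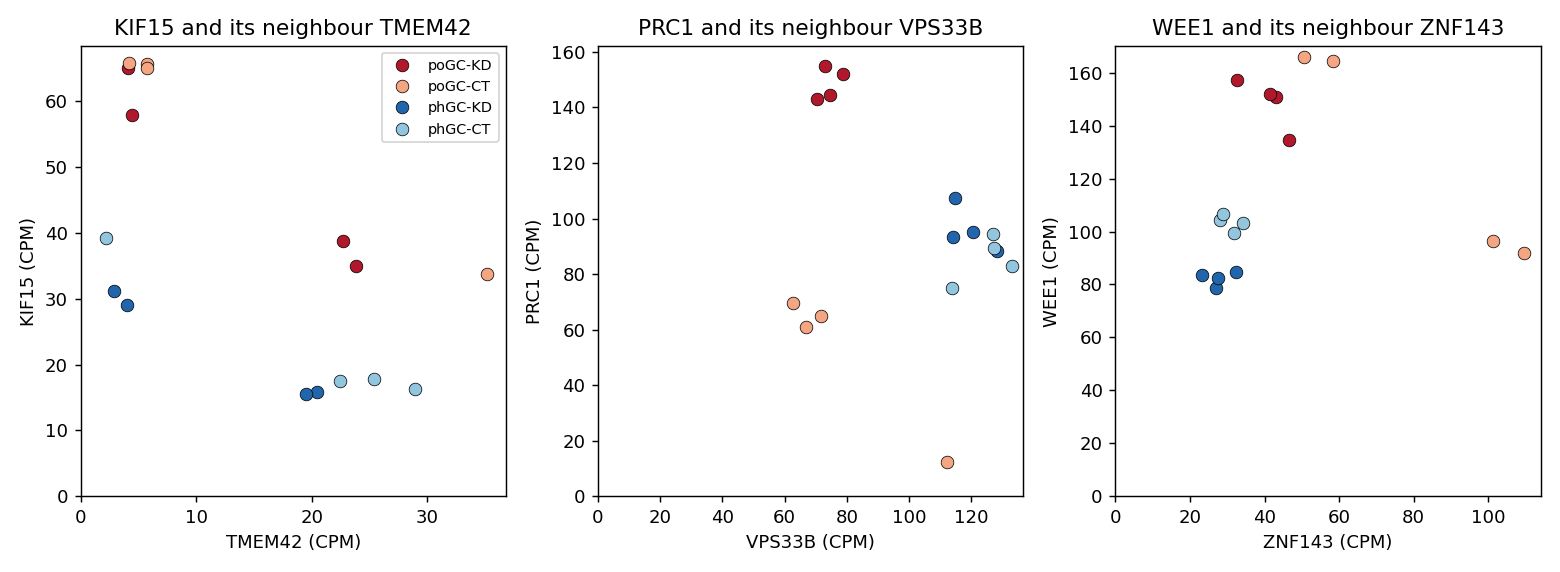
CPM of KIF15, PRC1 and WEE1 in each of the 16 libraries, plotted against the CPM of the neighbouring gene's row, with colours for the 4 groups. In poGC-CT, KIF15 drops to 33.8 CPM in the library where TMEM42 is at 35.2 CPM, PRC1 drops to 12.2 CPM where VPS33B is at 112 CPM, and WEE1 is at 91.9 and 96.3 CPM where ZNF143 is at 110 and 101 CPM.

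Mitotic kinases and centrosome genes rose together in poGC. All 8 were called higher in poGC-KD, with log2 fold changes of 0.76 to 1.48, and none was called in phGC. The difference between cell types was called for all 8, but for STIL in only 9 of 23 runs with the reported test included. NEK2, the kinase that splits the centrosomes apart, had 16.5, 15.4, 18.2 and 18.6 CPM in poGC-KD, against 5.93, 6.45, 6.68 and 5.90 CPM in poGC-CT. No library overlapped, and its log2 fold change was 1.48 (SE 0.08, edgeR adjusted p = 8.89e-06). In phGC NEK2 had 11.4, 13.3, 13.2 and 14.4 CPM in phGC-KD, against 11.5, 10.8, 10.7 and 11.5 CPM in phGC-CT, with groups that overlapped and a log2 fold change of 0.23 (SE 0.10, edgeR adjusted p = 0.173). PLK1, the polo-like kinase needed from mitotic entry to cytokinesis, had the highest mean FPKM of the group over all 16 libraries, at 37.9 FPKM in poGC-KD, 14.4 in poGC-CT, 30.7 in phGC-KD and 29.5 in phGC-CT. PBK stood above PLK1 in poGC-CT (15.4 FPKM) and in phGC-KD (32.0 FPKM). PLK1 had 121, 101, 113 and 112 CPM in poGC-KD, against 44.4, 39.5, 49.1 and 44.1 CPM in poGC-CT, without overlap, a log2 fold change of 1.36 (SE 0.08, edgeR adjusted p = 1.12e-05). In phGC PLK1 had 84.2, 83.8, 89.6 and 97.5 CPM in phGC-KD, against 76.4, 89.9, 93.6 and 83.3 CPM in phGC-CT, and the groups overlapped, with a log2 fold change of 0.04 (SE 0.08, edgeR adjusted p = 0.773). STIL, a centriole duplication factor, rose least. STIL had 11.9, 10.3, 10.6 and 11.3 CPM in poGC-KD, against 7.45, 6.71, 6.68 and 5.60 CPM in poGC-CT, again without overlap, a log2 fold change of 0.76 (SE 0.11, edgeR adjusted p = 9.53e-04). In phGC STIL had 5.27, 4.26, 5.12 and 4.52 CPM in phGC-KD, against 6.14, 4.8, 3.80 and 4.07 CPM in phGC-CT, and the groups overlapped. BORA, the activator of Aurora A, AURKA itself, PLK4, the kinase that starts centriole duplication, MELK and PBK, kinases enriched in dividing cells, rose by 0.92 (PLK4) to 1.43 (BORA) in poGC. AURKA, at 1.10 (SE 0.05), had the smallest error of these 5.

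The chromosomal passenger complex corrects wrong attachments of chromosomes to the spindle; of its 4 listed subunits only INCENP, the scaffold, and BIRC5, also called survivin, had a row. BIRC5 had 38.9, 38.9, 40.5 and 36.6 CPM in poGC-KD, against 15.8, 21.6, 19 and 17.4 CPM in poGC-CT, without overlap, a log2 fold change of 1.09 (SE 0.09, edgeR adjusted p = 5.62e-05). In phGC BIRC5 had 35.9, 41.3, 36.5 and 39.2 CPM in phGC-KD, against 27.6, 39.5, 37.9 and 36.3 CPM in phGC-CT, with overlap and a log2 fold change of 0.11 (SE 0.12, edgeR adjusted p = 0.593). INCENP had 87.4, 87.0, 97.8 and 94.6 CPM in poGC-KD, against 49.7, 45.6, 51.0 and 39.0 CPM in poGC-CT, without overlap, a log2 fold change of 1.00 (SE 0.09, edgeR adjusted p = 7.25e-05). INCENP was 1 of the 3 genes called higher in both cell types. It had 59.0, 58.3, 54.4 and 58.6 CPM in phGC-KD, against 47.0, 48.3, 43.1 and 44.1 CPM in phGC-CT, without overlap, and its log2 fold change in phGC was 0.33 (SE 0.07, edgeR adjusted p = 0.0168). That call was lost on the FPKM scale and without phGC-KD 1, phGC-KD 4 or phGC-CT 4 (edgeR adjusted p = 0.0534, 0.0536 and 0.0689). The effect on INCENP was still the larger in poGC, with a difference of 0.65 (SE 0.11, edgeR adjusted p = 0.00143).

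Of 10 kinesins, the microtubule motors, 8 rose in poGC and none passed in phGC. KIF2C, which depolymerizes microtubules at kinetochores, had 46.4, 37.8, 47.3 and 48.7 CPM in poGC-KD, against 18.5, 16.0, 18.1 and 16.4 CPM in poGC-CT. No library overlapped, and the log2 fold change of 1.41 was level with that of KIF11, the motor that pushes the poles apart (1.41, SE 0.05). In phGC KIF2C had 22.7, 20.5, 23.1 and 22.5 CPM in phGC-KD, against 19.4, 18.1, 14.3 and 18.6 CPM in phGC-CT; the groups did not overlap, but the log2 fold change of 0.33 (SE 0.11, edgeR adjusted p = 0.0849) missed the threshold. KIF2C passed with DESeq2 (adjusted p = 0.0324) and in the fit of all 16 libraries (edgeR adjusted p = 0.0309). KIF4A, a chromosome-bound motor that works with condensin and at the midzone, was the most abundant kinesin at 25.4 FPKM in poGC-KD, 10.6 in poGC-CT, 16.2 in phGC-KD and 13.8 in phGC-CT. KIF4A had 132, 133, 130.2 and 136 CPM in poGC-KD, against 58.1, 57.7, 57.8 and 55.9 CPM in poGC-CT, without overlap, and had the smallest SE of the kinesins (1.23, SE 0.04, edgeR adjusted p = 1.02e-06). In phGC KIF4A had 90.7, 67.7, 87.0 and 87.6 CPM in phGC-KD, against 73.0, 77.1, 64.4 and 70.4 CPM in phGC-CT, with overlap. KIF20B, a motor of late cytokinesis, did not move in step with its relatives. KIF20B had 3.27, 4.96, 4.60 and 4.75 CPM in poGC-KD, against 4.78, 5.30, 3.70 and 3.65 CPM in poGC-CT, fully overlapping, and a log2 fold change of 0.03 (SE 0.18, edgeR adjusted p = 0.919) with an interval of -0.37 to 0.44, which reaches no 2-fold change. It had the lowest mean FPKM of the 53 over all 16 libraries, though KIF14 (0.752 FPKM) and FBXO5 (0.862 FPKM) stood below it in poGC-CT (0.926 FPKM), and the phGC values rest on 45, 39, 21 and 50 counts in phGC-KD, against 25, 24, 15 and 32 counts in phGC-CT. KIF20A, the central spindle motor, and KIF23, of the centralspindlin complex, rose by 1.27 and 1.09. KIF14, KIF18A and KIF18B rose by 1.11, 0.91 and 1.08. The difference between cell types was not called for KIF14 (edgeR adjusted p = 0.0621) or KIF18A (edgeR adjusted p = 0.266), both with an SE of 0.24 in phGC. For KIF14 it passed with DESeq2 (adjusted p = 0.0203) and with counts corrected for transcript length (edgeR adjusted p = 0.00679). It also passed for KIF14 without phGC-CT 3 (edgeR adjusted p = 0.0265).

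All 8 spindle microtubule proteins rose in poGC, and 1 passed in phGC. SPAG5, or astrin, which stabilizes attachments of the spindle, had 149, 118, 133 and 120.0 CPM in poGC-KD, against 50.2, 50.8, 53.8 and 51.6 CPM in poGC-CT. No library overlapped, and the log2 fold change was 1.35 (SE 0.08, edgeR adjusted p = 1.14e-05). SPAG5 also rose in phGC, where it had 148, 138, 159 and 157 CPM in phGC-KD, against 97.1, 116, 118 and 114 CPM in phGC-CT, without overlap and with a log2 fold change of 0.43 (SE 0.08, edgeR adjusted p = 0.0119). That call was lost once counts were corrected for transcript length (log2 fold change 0.33, edgeR adjusted p = 0.101). TACC3, which crosslinks spindle fibres, had the highest mean FPKM of the group over all 16 libraries (41.5 FPKM in poGC-KD, 30.8 in poGC-CT, 19.7 in phGC-KD and 18.3 in phGC-CT) and rose least of all 49 called genes. TPX2 stood above it in phGC-KD (22.6 FPKM) and in phGC-CT (21.3 FPKM), and SPAG5 in phGC-KD (22.3 FPKM). TACC3 had 127, 133, 139 and 140.4 CPM in poGC-KD, against 106, 94.5, 102 and 100.3 CPM in poGC-CT, without overlap, a log2 fold change of 0.44 (SE 0.05, edgeR adjusted p = 2.77e-04). In phGC TACC3 had 62.3, 63.6, 62.9 and 53.4 CPM in phGC-KD, against 63.1, 60.6, 46.5 and 56.4 CPM in phGC-CT, with overlap and a log2 fold change of 0.09 (SE 0.10, edgeR adjusted p = 0.621). The difference between cell types was not called for TACC3 (0.32, SE 0.12, edgeR adjusted p = 0.109), except without phGC-CT 3 (0.42, edgeR adjusted p = 0.0103). Between these ends, CKAP2 rose by 1.35, HMMR by 1.3, TPX2, the activator of AURKA on microtubules, by 1.04, NUSAP1 by 0.82, ASPM, which focuses spindle poles, by 0.82 and DLGAP5 by 0.63. CKAP2 in phGC-KD lay above phGC-CT in every library but missed the threshold (0.42, SE 0.14, edgeR adjusted p = 0.106).

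All 6 cytokinesis genes rose in poGC and none passed in phGC. PRC1 had the highest FPKM (43.6 FPKM in poGC-KD, 14.6 in poGC-CT, 28.8 in phGC-KD and 25.4 in phGC-CT) and, with all 8 libraries, the largest change, with the values given above. Without poGC-CT 4 the values of ANLN (1.34), CEP55 (1.28) and CIT (1.25) were above the 1.20 of PRC1, and PRC1 summed with VPS33B, at 0.80, was below the other 5 genes. In phGC PRC1 had 93.2, 88.3, 95.1 and 107 CPM in phGC-KD, against 75, 94.4, 82.8 and 89.2 CPM in phGC-CT, with overlap and a log2 fold change of 0.16 (SE 0.09, edgeR adjusted p = 0.285). ECT2, the exchange factor that activates RhoA at the division plane, rose least, with 46.8, 47.5, 40.6 and 54.6 CPM in poGC-KD, against 26.8, 26.6, 27.8 and 27.0 CPM in poGC-CT. The groups did not overlap, and the log2 fold change was 0.83 (SE 0.08, edgeR adjusted p = 1.51e-04). In phGC ECT2 had 23.2, 19.7, 22.3 and 20.3 CPM in phGC-KD, against 21.5, 21.9, 14.5 and 18.7 CPM in phGC-CT, with overlap and a log2 fold change of 0.15 (SE 0.14, edgeR adjusted p = 0.516). ANLN, or anillin, which anchors the contractile ring, rose by 1.33, citron kinase CIT by 1.25, CEP55, which recruits the abscission machinery, by 1.23, and RACGAP1, the partner of KIF23 in centralspindlin, by 0.86. ANLN and CIT reached 0.46 and 0.46 in phGC, short of the threshold (edgeR adjusted p = 0.138 and 0.186), and both passed without phGC-CT 1 (edgeR adjusted p = 0.0399 and 0.0436).

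Condensins and chromosome structure genes rose in poGC in 9 of 10 cases. NCAPG2 was the exception. NCAPG2 had 157, 172, 161 and 180.4 CPM in poGC-KD, against 168, 158, 173 and 171 CPM in poGC-CT, fully overlapping, and the log2 fold change of 0.02 (SE 0.05, edgeR adjusted p = 0.801) had an interval of -0.10 to 0.14, below the log2 fold changes of the other 6 condensin subunits. In phGC NCAPG2 had 111, 95.4, 101 and 90.0 CPM in phGC-KD, against 121, 93.7, 76.5 and 91.9 CPM in phGC-CT, with overlap and a log2 fold change of 0.05 (SE 0.13, edgeR adjusted p = 0.839). NCAPG2 and NCAPD3 are both subunits of condensin II, yet NCAPD3 rose most of the group. NCAPD3 had 41.3, 34.7, 36.2 and 42.1 CPM in poGC-KD, against 14.3, 13.3, 16.9 and 15.9 CPM in poGC-CT, without overlap, a log2 fold change of 1.37 (SE 0.10, edgeR adjusted p = 2.51e-05). In phGC NCAPD3 had 26.8, 24.9, 24.3 and 28.6 CPM in phGC-KD, against 22.8, 23.0, 19.8 and 20.5 CPM in phGC-CT, without overlap but short of the threshold (0.28, SE 0.09, edgeR adjusted p = 0.0865). The condensin I subunits NCAPH, NCAPG and NCAPD2 rose by 0.95, 0.71 and 0.67, and SMC2 and SMC4, the ATPases common to both condensins, by 1.09 and 1.17. TOP2A, the topoisomerase that untangles sister chromatids, rose by 1.36 and MKI67 by 1.36. HMGB2, a chromatin protein whose RNA peaks in G2 and mitosis, had the highest mean FPKM of the group over all 16 libraries, at 32.3 FPKM in poGC-KD, 20.2 in poGC-CT, 27.6 in phGC-KD and 33.4 in phGC-CT. TOP2A stood above it in poGC-KD (33.8 FPKM), and NCAPG2 in poGC-CT (23.7 FPKM). HMGB2 had 38.3, 42.2, 42.8 and 40.7 CPM in poGC-KD, against 25.9, 26.4, 28.1 and 26.5 CPM in poGC-CT, without overlap, a log2 fold change of 0.64 (SE 0.05, edgeR adjusted p = 3.40e-05). It moved the other way in phGC, with 31.3, 34.0, 36.5 and 35.6 CPM in phGC-KD, against 41.8, 43.2, 42.0 and 39.7 CPM in phGC-CT. There too the groups did not overlap, and the log2 fold change was -0.29 (SE 0.07, edgeR adjusted p = 0.0396). The phGC call of HMGB2 was lost without any 1 of the 8 phGC libraries (edgeR adjusted p = 0.0507 to 0.114), while the difference between cell types was 0.90 (SE 0.08, edgeR adjusted p = 1.51e-05).

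Of 9 genes that control mitotic entry and exit, 8 rose in poGC, by 0.53 to 1.22, and WEE1 did not pass. UBE2C, the ubiquitin-conjugating enzyme of the anaphase-promoting complex, rose most and was the most abundant of all 53 in each group, at 90.6 FPKM in poGC-KD, 37.8 in poGC-CT, 69.5 in phGC-KD and 63.8 in phGC-CT. UBE2C had 101, 89.0, 92.3 and 80.5 CPM in poGC-KD, against 37.0, 43.4, 40.7 and 36.5 CPM in poGC-CT, without overlap, a log2 fold change of 1.22 (SE 0.09, edgeR adjusted p = 2.51e-05). In phGC UBE2C had 63.7, 80.9, 65.0 and 63.7 CPM in phGC-KD, against 50.4, 69.2, 71.3 and 61.4 CPM in phGC-CT, with overlap and a log2 fold change of 0.11 (SE 0.13, edgeR adjusted p = 0.621). MASTL, or Greatwall, the kinase that keeps the phosphatase PP2A off during mitosis, rose in both cell types. MASTL had 16.1, 15.4, 21.7 and 19.2 CPM in poGC-KD, against 9.20, 8.35, 8.48 and 8.54 CPM in poGC-CT, without overlap, a log2 fold change of 1.09 (SE 0.11, edgeR adjusted p = 1.96e-04). In phGC MASTL had 11.5, 11.9, 12 and 9.07 CPM in phGC-KD, against 7.38, 7.25, 5.01 and 7.55 CPM in phGC-CT, without overlap, and 0.71 (SE 0.16, edgeR adjusted p = 0.0257) was the largest change of the 53 there. Without any 1 of phGC-KD 1, 2 or 3 or phGC-CT 2 or 4, the call of MASTL in phGC was lost (edgeR adjusted p = 0.0554 to 0.0727), and the difference between cell types was not called (0.36, SE 0.20, edgeR adjusted p = 0.318). CDC25A and CDC25B, the phosphatases that undo WEE1's block on CDK1, rose by 0.53 and 0.53. CDC25B and FBXO5 were the called genes whose poGC groups overlapped. In phGC CDC25B stood at 0.42 (edgeR adjusted p = 0.0598), and the difference between cell types was 0.08 with an interval of -0.33 to 0.50. It was called in phGC with DESeq2 (adjusted p = 0.0114), limma on log2(FPKM + 1) (adjusted p = 0.0476), and with edgeR in the fit of all 16 libraries, with the length offset and without phGC-KD 3 (edgeR adjusted p = 0.0441, 0.0133 and 0.0249). In poGC CDC25B lost its call without any 1 of poGC-KD 1, 3 or 4 or poGC-CT 1, 3 or 4 (edgeR adjusted p = 0.0512 to 0.0639), and FBXO5, the APC/C inhibitor EMI1 (0.84), without any 1 of poGC-KD 2 or 3 or poGC-CT 2, 3 or 4 (0.0593 to 0.0644). CDCA3, PTTG1, or securin, and ESPL1, the separase that securin restrains, rose by 1.12, 0.87 and 0.73.

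Levels across the 53 genes spanned a wide range. Group means ran from 1.21 to 90.6 FPKM in poGC-KD (median 15.5), against 0.752 to 37.8 FPKM in poGC-CT (median 7.41). They ran from 0.338 to 69.5 FPKM in phGC-KD (median 8.81), against 0.124 to 63.8 FPKM in phGC-CT (median 8.67). By mean CPM, poGC-KD was the highest group in 48 genes; poGC-CT was the highest for KIF15, phGC-KD for SPAG5, and phGC-CT for CDC25A, CDCA3 and HMGB2. In 17 genes poGC-KD was followed by phGC-KD, then phGC-CT, with poGC-CT last. In 14 genes poGC-CT came second, ahead of phGC-KD and then phGC-CT. For 48 of the 53 genes phGC-KD and phGC-CT, neighbours in both orders, did not differ past the threshold.

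**Figure D4:**
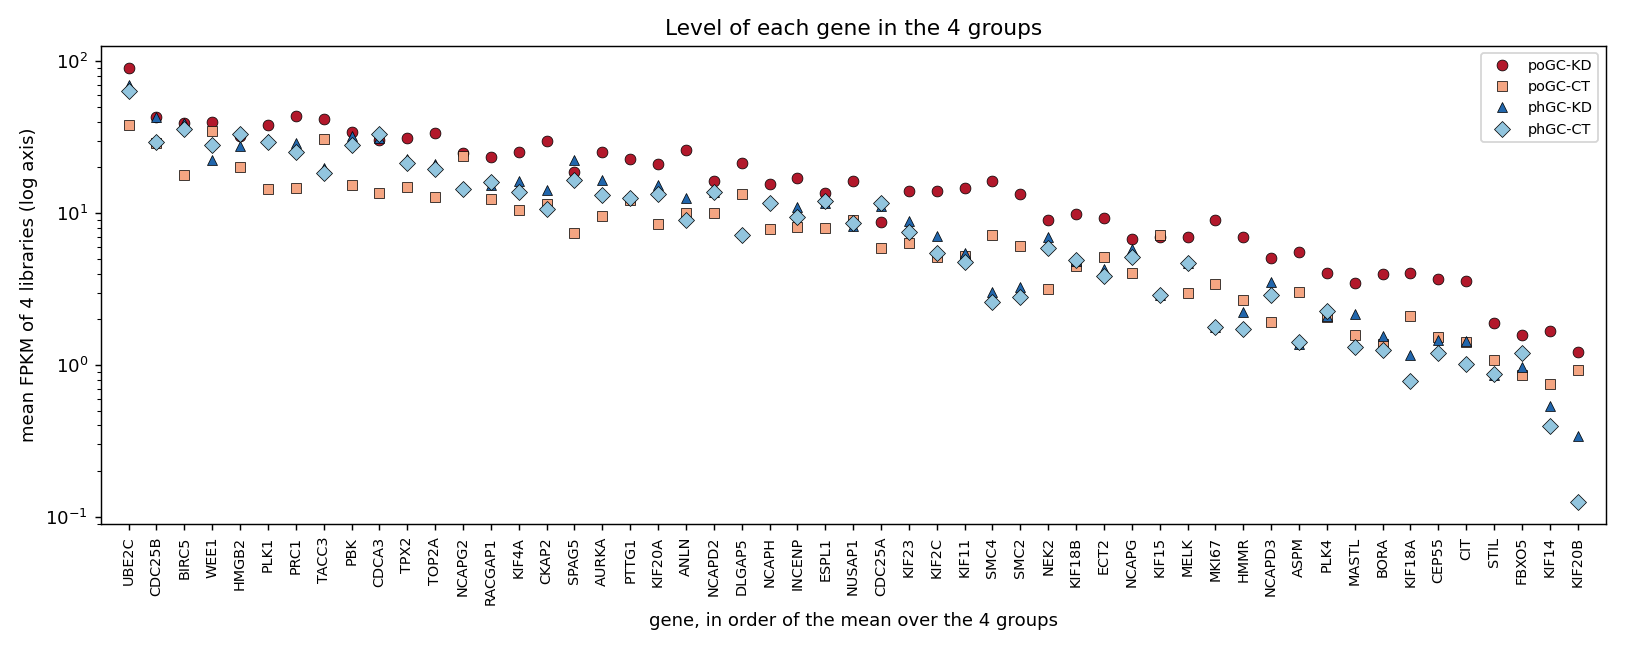
Mean FPKM of the 4 libraries of each group on a log axis for each of the 53 genes, ordered by the mean over the groups. UBE2C is the highest in all groups (90.6 FPKM in poGC-KD, 37.8 in poGC-CT, 69.5 in phGC-KD, 63.8 in phGC-CT), and KIF20B, at the right end, has the lowest mean over the groups.

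The control groups were compared to see how the genes differ between the follicle stages without the knockdown. Here the members were split, 17 called higher and 20 called lower in poGC-CT than in phGC-CT, where 32.5% of all 14089 genes tested were called higher and 31.5% lower, 64% in all. In 16 genes every poGC-CT library lay above every phGC-CT library and in 21 every one lay below, where 31.2% and 29.3% of all genes did so. By the study's criteria 12 were higher and 9 lower, against 23.9% and 17.8% of all genes. The median log2 fold change was -0.04. The genes named here for this comparison were chosen after their values were seen. Higher in poGC-CT were KIF20B (2.53, SE 0.25, edgeR adjusted p = 3.26e-05), SMC4 (1.5, SE 0.13, edgeR adjusted p = 1.67e-05), KIF15 (1.33, SE 0.33, edgeR adjusted p = 0.00703) and KIF18A (1.24, SE 0.17, edgeR adjusted p = 2.56e-04), followed by SMC2, ASPM, KIF14 and MKI67 at 1.01 to 1.18, of which ASPM, KIF14 and MKI67 are the longest of the 53. The value of KIF20B rests on 25, 24, 15 and 32 counts in phGC-CT. Over the alternatives it ran from 0.77 to 2.69 and was called in each. SMC4 had 40.2, 33.9, 42.4 and 41.5 CPM in poGC-CT, against 17.4, 13.3, 11.7 and 13.1 CPM in phGC-CT, without overlap. Lower in poGC-CT were CDCA3 (-1.22, SE 0.08, edgeR adjusted p = 3.39e-06), SPAG5 (-1.12, SE 0.07, edgeR adjusted p = 1.61e-06), PLK1 (-0.96, SE 0.09, edgeR adjusted p = 1.78e-05) and BIRC5 (-0.94, SE 0.13, edgeR adjusted p = 2.78e-04). CDCA3 had 18.2, 20.4, 17.4 and 17.6 CPM in poGC-CT, against 37.5, 44.1, 45.1 and 44.0 CPM in phGC-CT, without overlap. KIF15 varied against TMEM42 in these libraries, and with that row added its value was 0.72 (edgeR adjusted p = 7.22e-06). PRC1 was not called with all 8 libraries (-0.73, SE 0.44, edgeR adjusted p = 0.177). It was called without poGC-CT 4 (-0.40, edgeR adjusted p = 0.00693) and with VPS33B added (-0.70, edgeR adjusted p = 1.16e-05). WEE1 was called only with ZNF143 added (0.63, edgeR adjusted p = 7.84e-06). The sums are values for both rows together. This comparison shares the poGC-CT libraries with the poGC knockdown comparison and the phGC-CT libraries with the phGC one.

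Transcript length moved with this stage difference. A length was implied for each gene as its count per library total divided by its FPKM. Over 14089 genes the log2 fold change of poGC-CT over phGC-CT rose with length, with medians of -0.31, -0.15, -0.012, 0.20 and 0.48 from the shortest to the longest of 5 equal bins and a Spearman's rho of 0.30. Over the 53 members, which ran from 997 bases (BIRC5) to 12521 bases (ASPM), rho was 0.48; these genes share all 8 libraries. After an offset that removed the trend in each library, an alternative chosen after seeing the data, 15 were called higher and 21 lower. ASPM stood at 0.55, KIF14 at 0.41 and MKI67 at 0.50 with the offset, all still called, against 1.18, 1.02 and 1.01 without it. The calls of KIF11 (0.068), CIT (0.034), STIL (0.21) and CEP55 (0.34) as higher were lost with the offset. RACGAP1 (-0.16) lost its call as lower. PTTG1 (0.35) gained a call as higher, and KIF23 (-0.26) and FBXO5 (-0.61) gained calls as lower. SMC4 stood at 1.3 and KIF20B at 2.30 with the offset. ANLN and INCENP, both uncalled, turned negative, and CDC25B turned positive and was called (0.29, edgeR adjusted p = 0.0121). The knockdown comparison in poGC hardly followed length (rho 0.037 over all genes and 0.069 over the members), and the 49 calls there stayed at 49 with the offset. In phGC rho was 0.16 over all genes and 0.23 over the members. What lies behind the trend was not tested.

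**Figure D5:**
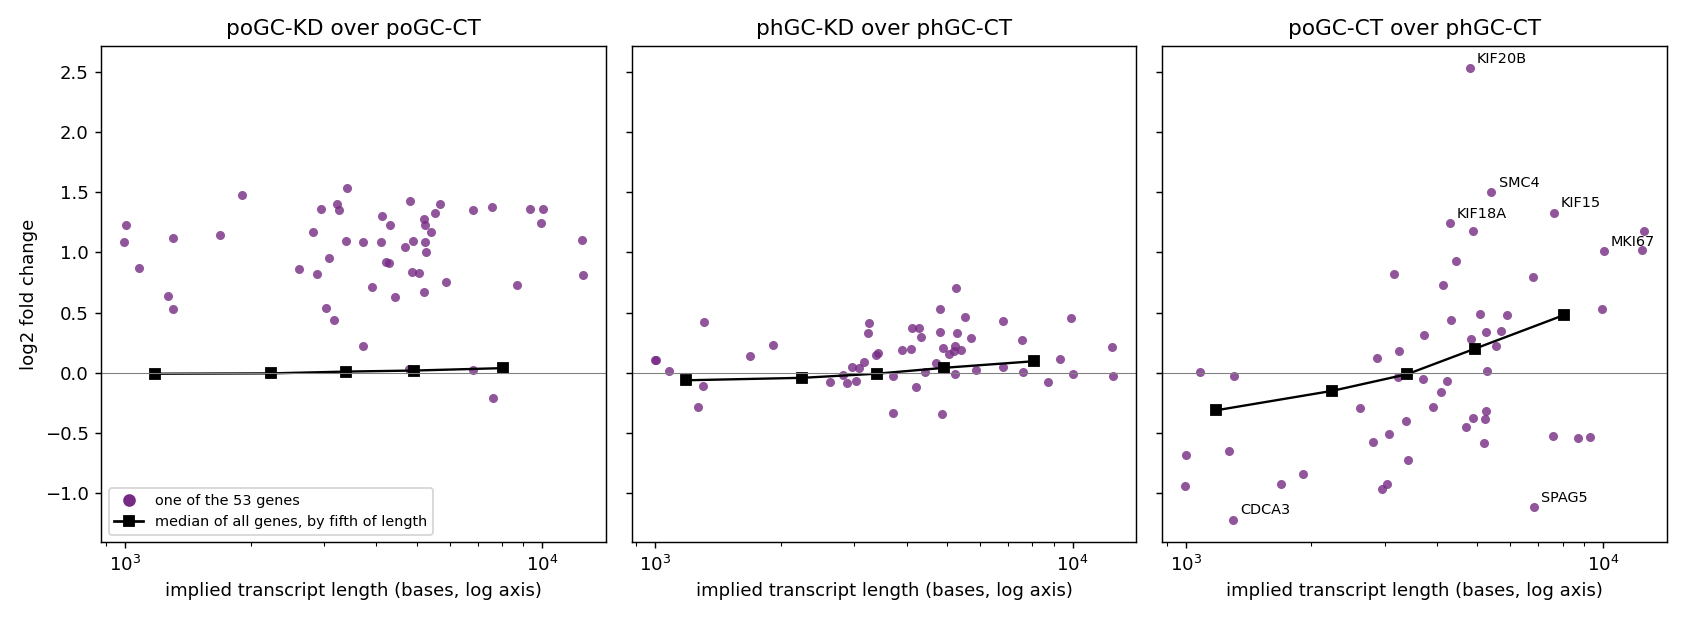
Log2 fold change of each of the 53 genes against its implied transcript length in bases on a log axis, for the knockdown in poGC, the knockdown in phGC and the control groups; black squares are the medians of all genes tested in each of 5 equal bins of length. The squares stay near 0 for the knockdown in poGC and climb from -0.31 to 0.48 between the control groups, where SMC4 and MKI67 lie above them and CDCA3 and SPAG5 below.

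The regulators and relatives of these genes were counted from lists set beside the members. For these lists, a rise or fall means a called one. Over all genes tested, 15.2% were called higher and 13.6% lower in poGC, with a median of 0.0094, and 5.06% higher and 4.91% lower in phGC, with a median of -0.0058. Among 13 factors of late cell cycle transcription, 6 rose and 3 fell in poGC (46.2% and 23.1%, median 0.27). The largest rise was that of RBL1, or p107, a DREAM pocket protein, at 1.07 (SE 0.13, edgeR adjusted p = 4.73e-04), and the largest fall that of RBBP4, a histone-binding MuvB subunit, at -0.47 (SE 0.04, edgeR adjusted p = 1.13e-04). In phGC 0 rose and 3 fell (median -0.08), the largest fall being that of NFYA, a subunit of the CCAAT-box factor, at -0.79 (SE 0.09, edgeR adjusted p = 0.00135). FOXM1 and MYBL2 are given as the activators named above, chosen after their values were seen. FOXM1 rose in poGC by 1.01 (SE 0.08, edgeR adjusted p = 4.38e-05) and stood at -0.08 (SE 0.15, edgeR adjusted p = 0.765) in phGC. MYBL2 was not called in either, at 0.80 (SE 0.63, edgeR adjusted p = 0.387) in poGC and 0.12 (SE 0.08, edgeR adjusted p = 0.367) in phGC.

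Other mitotic kinesins (CENPE, KIFC1 and KIF2A) had 2 rises in poGC, the larger that of KIFC1, a minus-end motor, at 1.15 (SE 0.32, edgeR adjusted p = 0.0284), and no call in phGC. The other kinesins, mostly transport motors, were divided: 5 of 20 rose and 4 fell in poGC (25% and 20%, against 15.2% and 13.6% of all genes), with a median of -0.02, KIF26B at 1.29 (SE 0.10, edgeR adjusted p = 2.98e-05) and the axonal motor KIF1A at -0.55 (SE 0.08, edgeR adjusted p = 0.00107). In phGC 0 of 19 rose and 1 fell, KIF1A at -0.37 (SE 0.09, edgeR adjusted p = 0.0321).

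Of 15 APC/C genes, 6 rose and 0 fell in poGC (40% and 0%, median 0.21), the largest called rise being that of ANAPC5 at 0.53 (SE 0.05, edgeR adjusted p = 1.75e-04). The largest value of the list in poGC, 1.68, was not called, and 1 gene passed the study's criteria. In phGC 1 rose, CDC16 at 0.44 (SE 0.09, edgeR adjusted p = 0.0152). Of 10 cohesin genes, 2 rose and 1 fell in poGC (20% and 10%, close to the shares over all genes, median 0.04), with RAD21, the cleaved ring subunit, at 0.34 (SE 0.04, edgeR adjusted p = 4.35e-04) and the acetyltransferase ESCO1 at -0.18 (SE 0.04, edgeR adjusted p = 0.0180); none was called in phGC. Microtubule nucleation genes had 5 rises and 1 fall of 18 in poGC (27.8% and 5.56%, median 0.13), the largest rise that of HAUS1, an augmin subunit, at 0.88 (SE 0.13, edgeR adjusted p = 0.00110) and the fall that of TUBGCP5 at -0.16 (SE 0.05, edgeR adjusted p = 0.0485). In phGC 2 of 18 fell, pericentrin (PCNT) most at -0.72 (SE 0.13, edgeR adjusted p = 0.0117).

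The abscission and contractile ring list, most of which serves the cytoskeleton and membranes in all cells, had 2 rises and 4 falls of 21 in poGC (9.52% and 19%, median -0.03), from SEPT9, a septin, at 0.91 (SE 0.05, edgeR adjusted p = 5.57e-06) to the non-muscle myosin MYH10 at -0.25 (SE 0.04, edgeR adjusted p = 0.00248). In phGC 2 rose and 1 fell, SEPT9 at 0.38 (SE 0.06, edgeR adjusted p = 0.00541) and MYL9 at -0.33 (SE 0.09, edgeR adjusted p = 0.0449). Another list held mitotic phosphatase genes with ENSA, ARPP19 and PKMYT1. Of its 8 genes tested, 2 rose and 3 fell in poGC (25% and 37.5%, median -0.03), PPP1CC at 0.66 (SE 0.04, edgeR adjusted p = 1.54e-05) and CDC14A at -0.33 (SE 0.09, edgeR adjusted p = 0.0234), and 1 rose in phGC, PPP2R2A at 0.45 (SE 0.10, edgeR adjusted p = 0.0216).

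Of 14 cell cycle brakes tested, 6 fell and 1 rose in poGC (42.9% and 7.14%, median -0.18). BTG2, an antiproliferative gene, fell most at -0.66 (SE 0.04, edgeR adjusted p = 1.08e-05), and the rise was that of CDKN2C, a CDK4 and CDK6 inhibitor, at 1.12 (SE 0.24, edgeR adjusted p = 0.00902). In phGC 1 fell, BTG2 at -0.67 (SE 0.07, edgeR adjusted p = 0.00113), and 2 rose, the larger called rise being that of CDKN1A, or p21, at 0.50 (SE 0.10, edgeR adjusted p = 0.0167). The largest value of the list in phGC, 0.86, was not called, and 1 gene passed the study's criteria upward.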

How the data were processed

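The authors sequenced 16 libraries of cultured chicken granulosa cells and deposited read counts and FPKM values per gene, both used here. The submitters' processing notes name HISAT2 2.1.0, StringTie 1.3.4d and DESeq2 1.26.0 and the build Gallus_gallus-5.0, while the methods name another aligner; which made the counts was not settled. No other per-sample columns were present.

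The deposited counts were tested with edgeR 4.0.16 in R 4.3.3: TMM scaling, filterByExpr, a quasi-likelihood test in each comparison on its own 8 libraries (16 for the difference of effects), and Benjamini-Hochberg adjustment over all rows tested, with calls at an adjusted p of 0.05. The deposited FPKM values served for levels between genes and, as log2(FPKM + 1), for limma 3.58.1. DESeq2 1.42.0, other scaling and filters, a replicate block, one joint fit and leaving out each library were alternatives, and a length offset and sums with neighbouring rows were added after seeing the data. The scripts were checked on simulated data.

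The members and lists were chosen with earlier results of these data known. Values per library are given, in each role, for the largest and smallest poGC change, the highest FPKM, every gene not called in poGC and every gene called in phGC; of other lists, only the counts, medians and largest called rise and fall. RefSeq GRCg7b matched 49 members and gave neighbours only.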

Additional observations from a re-analysis of the deposited data

Results flagged for a closer look

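In 17 of 212 checks (53 genes in 4 groups of 4 libraries) 1 library lay far from the other 3. Its gap to the nearest took over 0.829 of the group's range on the log2 CPM scale, and chance flags about 1 in 20 groups. The levels that follow are in CPM. In poGC-KD, KIF18B stood at 42.6 CPM in library 1 (the others at 33.7 to 34.9 CPM) and CKAP2 stood at 106 CPM in library 4 (the others at 93.2 to 94.6 CPM). In poGC-CT, KIF15 stood at 33.8 CPM in library 4 (the others at 65.0 to 65.9 CPM), KIF4A stood at 55.9 CPM in library 4 (the others at 57.7 to 58.1 CPM), KIF20A stood at 42.9 CPM in library 2 (the others at 46.5 to 47.1 CPM), PRC1 stood at 12.2 CPM in library 4 (the others at 61.0 to 69.5 CPM) and CIT stood at 12.9 CPM in library 2 (the others at 15.1 to 15.3 CPM). In phGC-KD, INCENP stood at 54.4 CPM in library 3 (the others at 58.3 to 59.0 CPM), KIF4A stood at 67.7 CPM in library 2 (the others at 87.0 to 90.7 CPM), TACC3 stood at 53.4 CPM in library 4 (the others at 62.3 to 63.6 CPM), MASTL stood at 9.07 CPM in library 4 (the others at 11.5 to 12 CPM) and UBE2C stood at 80.9 CPM in library 2 (the others at 63.7 to 65.0 CPM). In phGC-CT, KIF15 stood at 39.3 CPM in library 2 (the others at 16.3 to 17.8 CPM), SPAG5 stood at 97.1 CPM in library 1 (the others at 114 to 118 CPM), CDC25A stood at 36.7 CPM in library 3 (the others at 33.8 to 34.2 CPM), MASTL stood at 5.01 CPM in library 3 (the others at 7.25 to 7.55 CPM) and CDCA3 stood at 37.5 CPM in library 1 (the others at 44.0 to 45.1 CPM). The KIF15 and PRC1 values in poGC-CT 4 and the KIF15 value in phGC-CT 2 belong to the rows whose counts vary against those of TMEM42 and VPS33B.

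The effect of the knockdown differed between the cell types, by the test of the difference itself across all genes (edgeR adjusted p under 0.05), for 42 genes, every one with the larger log2 fold change in poGC. Over all genes tested, 4.47% were called in that direction and 4.78% in the other, 9.25% in all. The calls of STIL, CIT, FBXO5 and ECT2 were not kept in every alternative run. Among the mitotic kinases and centrosome genes the difference on the log2 scale was 1.29 for PLK1, 1.23 for NEK2, 1.17 for MELK, 1.07 for BORA, 1.02 for PLK4, 0.98 for PBK, 0.92 for AURKA and 0.71 for STIL. Among the chromosomal passenger complex genes the difference on the log2 scale was 0.96 for BIRC5 and 0.65 for INCENP. Among the kinesins the difference on the log2 scale was 1.09 for KIF11, 1.09 for KIF18B, 1.07 for KIF20A, 1.05 for KIF2C, 0.99 for KIF4A and 0.86 for KIF23. Among the spindle microtubule proteins the difference on the log2 scale was 0.94 for TPX2, 0.91 for CKAP2, 0.91 for HMMR, 0.90 for SPAG5, 0.89 for NUSAP1, 0.82 for ASPM and 0.60 for DLGAP5. Among the cytokinesis genes the difference on the log2 scale was 0.91 for RACGAP1, 0.91 for CEP55, 0.85 for ANLN, 0.77 for CIT and 0.65 for ECT2. Among the condensins and chromosome structure genes the difference on the log2 scale was 1.34 for MKI67, 1.23 for TOP2A, 1.08 for NCAPD3, 0.96 for SMC4, 0.90 for HMGB2, 0.89 for NCAPH, 0.87 for SMC2 and 0.65 for NCAPD2. Among the mitotic entry and exit control genes the difference on the log2 scale was 1.21 for CDCA3, 1.16 for FBXO5, 1.09 for UBE2C, 0.83 for PTTG1, 0.78 for ESPL1 and 0.58 for CDC25A.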

How the results depend on the processing

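In poGC, 46 of the 49 calls were kept in all 16 alternatives; those on PRC1, CDC25B and FBXO5 were not, and leaving out 1 library gave 46 to 47 calls. In phGC no call was kept in every alternative. The phGC count of 5 became 9 with DESeq2 and 10 in a fit of all 16 libraries, and 2 (without phGC-KD 1 or phGC-CT 4) to 6 (without phGC-CT 1) when 1 library was left out. The share of all genes called in phGC moved as well, from 9.97% to 17.2% with DESeq2 and 17.4% in the fit of all 16 libraries. It was 5.7% without phGC-KD 1, 4.7% without phGC-CT 4 and 13.9% without phGC-CT 1. Calls higher, 3 in number, became 7 with DESeq2, 9 in the fit of all 16 libraries and 1 to 5 with a library left out. Calls lower, 2 in number, became 1 with all rows of at least 1 count, in the fit of all 16 libraries, with the length offset and without any 1 library. The single gene past the study's criteria in phGC became 0 with limma on log2(FPKM + 1), a scale that shrinks the change of low genes, and 0 (without phGC-CT 3) to 3 (without phGC-CT 1) with a library left out. The poGC median of 1.09 was 0.97 with limma on that scale and 1.03 to 1.09 with a library left out. For the difference between cell types 38 of 42 calls were kept in all 22 alternatives (not STIL, CIT, FBXO5 and ECT2), with 39 (without poGC-KD 2) to 45 (without phGC-CT 3) calls, and for the control groups 32 of 37 in all 16, with 33 to 38. With the reported test included, the difference was called in 8 of 23 runs for CIT, 9 for STIL, 14 for FBXO5 and 22 for ECT2.

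Replicate numbers gave no visible pairing of the libraries: the correlation of same-numbered libraries' deviations was -0.078 to 0.104 in the knockdown comparisons. These values cannot show whether libraries with other numbers came from the same hen. The replicate block used the numbers as given. With the replicate block the members called were 47 in poGC, 3 in phGC (1 lower), 40 for the difference and 37 for the control groups. Over all genes tested, the shares called with the block were 21.9%, 7.71%, 7.13% and 62.1%, in the same order. The block ended the calls of CDC25B (adjusted p = 0.0848) and FBXO5 (0.0600) in poGC, HMGB2 (0.0768) and MASTL (0.0645) in phGC, STIL (0.0674) and ECT2 (0.0686) for the difference and KIF11 (0.0505) between the control groups, where FBXO5 gained one (0.0482).

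Signs turned only for genes not called in that comparison by the test as reported. Outside the omission of a library, in poGC this was WEE1 summed with ZNF143 (-0.12). In phGC it was STIL with limma (-0.0057) and the length offset (-0.022), MELK with the offset (0.0074), KIF15 with upper-quartile scaling (-0.0048), the offset (-0.10) and TMEM42 added (-0.30), DLGAP5 with upper-quartile scaling (-0.0052) and the offset (-0.018), NCAPD2 in the fit of all 16 libraries (0.0016) and with limma (0.0015), NCAPG2 with the offset (-0.023), and MKI67 in the fit of all 16 libraries (0.0014) and with limma (0.0077). It was also KIF15 with TMEM42 added for the difference (0.14), and, between the control groups, INCENP with upper-quartile scaling (-0.073), limma (-0.19) and the offset (-0.20), ANLN with the offset (-0.050), CDC25B with the offset (0.29, called there) and PTTG1 with upper-quartile scaling (-0.082) and limma (-0.039). With 1 library left out, the log2 fold change crossed 0 for these genes (lowest to highest value), for the knockdown in poGC, KIF20B (-0.058 to 0.14) and NCAPG2 (-0.025 to 0.035); for the knockdown in phGC, PLK1 (-0.011 to 0.082), STIL (-0.071 to 0.18), MELK (-0.080 to 0.075), KIF15 (-0.18 to 0.40), KIF18B (-0.11 to 0.054), DLGAP5 (-0.095 to 0.10), NUSAP1 (-0.17 to 0.024), ASPM (-0.18 to 0.091), NCAPH (-0.025 to 0.11), NCAPD2 (-0.048 to 0.043), NCAPG2 (-0.049 to 0.18), MKI67 (-0.062 to 0.085), CDC25A (-0.15 to 0.013) and PTTG1 (-0.084 to 0.10); for the difference of the effects, NCAPG2 (-0.18 to 0.050) and CDC25B (-0.012 to 0.18); for the control groups, INCENP (-0.033 to 0.090), KIF2C (-0.13 to 0.011), CDC25B (-0.10 to 0.058) and PTTG1 (-0.088 to 0.10). The cause was not tested.

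Depth limits KIF20B in phGC, at 15 to 50 counts a library. No scaling moved the median of all genes by more than 0.1 on the log2 scale.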
